A study of Mus musculus with 30 samples.

Results

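The insulin-like growth factor (IGF) system was described here through 9 genes of the 35120 in the count table: the ligands Igf1 and Igf2, the receptor Igf2r, and the binding proteins Igfbp2, Igfbp3, Igfbp4, Igfbp5, Igfbp6 and Igfbp7. The genes were taken by name, matched by symbol to the identifiers in the table, and all 9 had a row. They were followed across 30 RNA-seq libraries from mouse white fat, in 6 groups. Adipocytes came from male controls (6 libraries), male knockout-labelled mice (5), female controls (6) and female knockout-labelled mice (6). Stromal-vascular cells (SVC), the pelleted mixture of preadipocytes, immune, vascular and mesothelial cells left after adipocytes float off a collagenase digest, came from male controls (3) and male knockout-labelled mice (4).

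Controls carried the floxed allele (Ctnnb1fl/fl), and knockout-labelled mice are named Ctnnb1AdKO in the protocol and Ctnnb1KO in the sample labels, a loss of β-catenin meant for adipocytes. Controls were matched for sex and age, and no treatment is named. The labels name neither the promoter that drives the deletion nor the exons removed nor an age. Each label names both the epididymal and the posterior subcutaneous depot, the female libraries included, so depots could not be compared. Replicates are numbered but not said to be separate mice, so a p-value here measures how far libraries of a group spread, which may be technical. The adipocyte marker sum (10 genes) was 51796 to 87779 normalised CPM (reads scaled to a common library size, defined below) in adipocyte libraries and 880 to 2544 in SVC libraries.

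IGF-I and IGF-II are small secreted hormones related to insulin. IGF-I acts on a tyrosine kinase receptor that resembles the insulin receptor, while the cation-independent mannose 6-phosphate receptor encoded by Igf2r takes IGF-II into the cell for breakdown. Most IGF outside cells is held by the binding proteins, which prolong its life, keep it from the receptor or, after a protease cuts them, release it. IGFBP-4 is such a protease substrate, IGFBP-6 prefers IGF-II, and IGFBP-7 is a low-affinity relative that is abundant in vessel walls. In fat, IGF-I is made by adipocytes, stromal cells and macrophages under growth hormone, and it supports preadipocyte growth and differentiation.

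Ctnnb1 itself was compared to check the labels, and its difference from controls did not pass in edgeR in any knockout-labelled group (adjusted p = 0.919 in male adipocytes, 0.670 in female adipocytes and 0.979 in SVC). Its level was 355 ± 33.2 normalised CPM (SD, n = 5) against 366 ± 10.6 (n = 6) in male adipocytes, 373 ± 32.3 against 347 ± 24.6 (n = 6 each) in female adipocytes, and 394 ± 131 (n = 4) against 358 ± 21.4 (n = 3) in SVC. Reads from exons that stay in place are counted too, so the gene does not settle the genotype labels, and "knockout-labelled" is used throughout. Levels are CPM (a count over its library total, on a scale common to all libraries) divided by TMM (trimmed mean of M values) factors over all 30 libraries. These factors were 0.841 to 0.975 in adipocytes and 1.21 to 1.63 in SVC, so a level set across the fractions depends on this scaling. Total counts were 20484836 to 22209603 per library.

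Per kilobase of exon, Igfbp7 and Igfbp4 were the main binding protein mRNAs of adipocytes. Of the length-scaled sum of the 6 Igfbp mRNAs, Igfbp4 made up 40.8% ± 3.62 (SD, n = 6) and Igfbp7 40.5% ± 3.90 in male control adipocytes, and Igfbp5 came next with 14.1% ± 2.09. In female control adipocytes the share of Igfbp7 was 61.2% ± 8.17 and that of Igfbp5 5.08% ± 1.57. In control SVC, Igfbp6 accounted for 33.7% ± 2.68 (n = 3), against 4.09% ± 2.85 in male control adipocytes, while Igfbp7 was the largest share with 40.3% ± 3.04 and Igfbp4 accounted for 15.9% ± 0.509. Igfbp2 stayed under 1.3% of the pool in every library, its highest share being 1.23% in an SVC control. Igf1 per kilobase was 0.0498 ± 0.00778 of the summed binding protein mRNAs in male control adipocytes, 0.0484 ± 0.00908 in female controls and 0.0358 ± 0.0116 in control SVC. Lengths are the union of all annotated exons of a gene in GENCODE M21, which can exceed the length of the transcripts expressed. That annotation is also on an older assembly than the authors' mm39. Shares and ratios per kilobase, that of Igf1 included, are thus approximate.

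**Figure D1:**
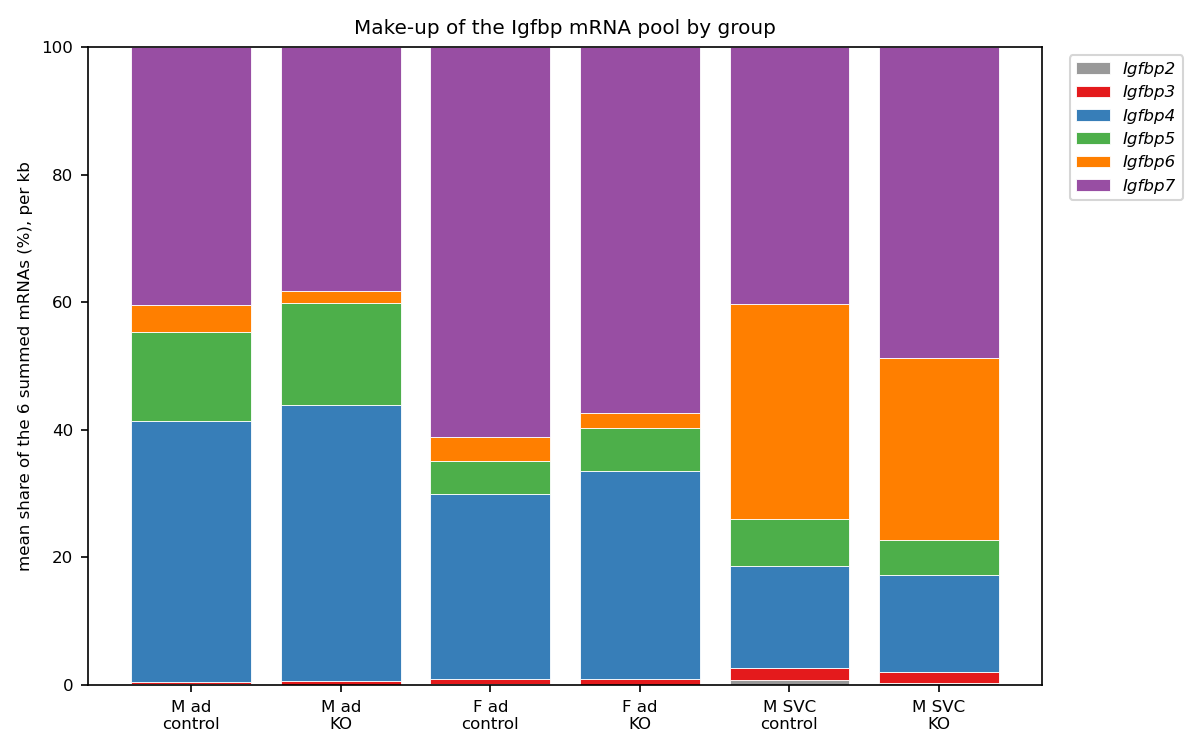
Make-up of the binding protein mRNA pool. Bars give the mean share (%) of each Igfbp mRNA in the length-scaled sum of 6, by group (M male, F female, ad adipocytes, KO knockout-labelled). Igfbp6 takes 33.7% of the pool in control SVC and 4.09% in male control adipocytes, and Igfbp7 takes 61.2% in female control adipocytes.

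Igf2, the fetal ligand, was close to absent. It had 1 read in all 6 male control adipocyte libraries together, 0 in the 5 male knockout-labelled libraries, 3 in the 6 female control libraries and 1 in the 6 female knockout-labelled libraries. SVC held 7 reads in 3 control libraries and 11 in 4 knockout-labelled libraries, of which 8 came from a single library. A library with no read allows up to 0.135 to 0.146 CPM (3 counts of its total, counting error only). Igf2 did not reach the filter on low counts in any fit and was not tested, so 8 of the 9 genes were. Its imprinted neighbour H19, named here after its values were seen, was also near 0 in adipocytes (0 to 4 reads per library) and had 9 to 47 reads per SVC library.

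The other genes differed widely in how evenly they were expressed within a group. The coefficient of variation between libraries of a group lay between 7.02% and 30.5% for Igfbp4 and between 7.86% and 29.8% for Igf1, but between 20.2% and 76.5% for Igfbp6 and between 54.6% and 153% for Igfbp2. The last 2 genes also had the most negative genotype differences in adipocytes.

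**Figure D2:**
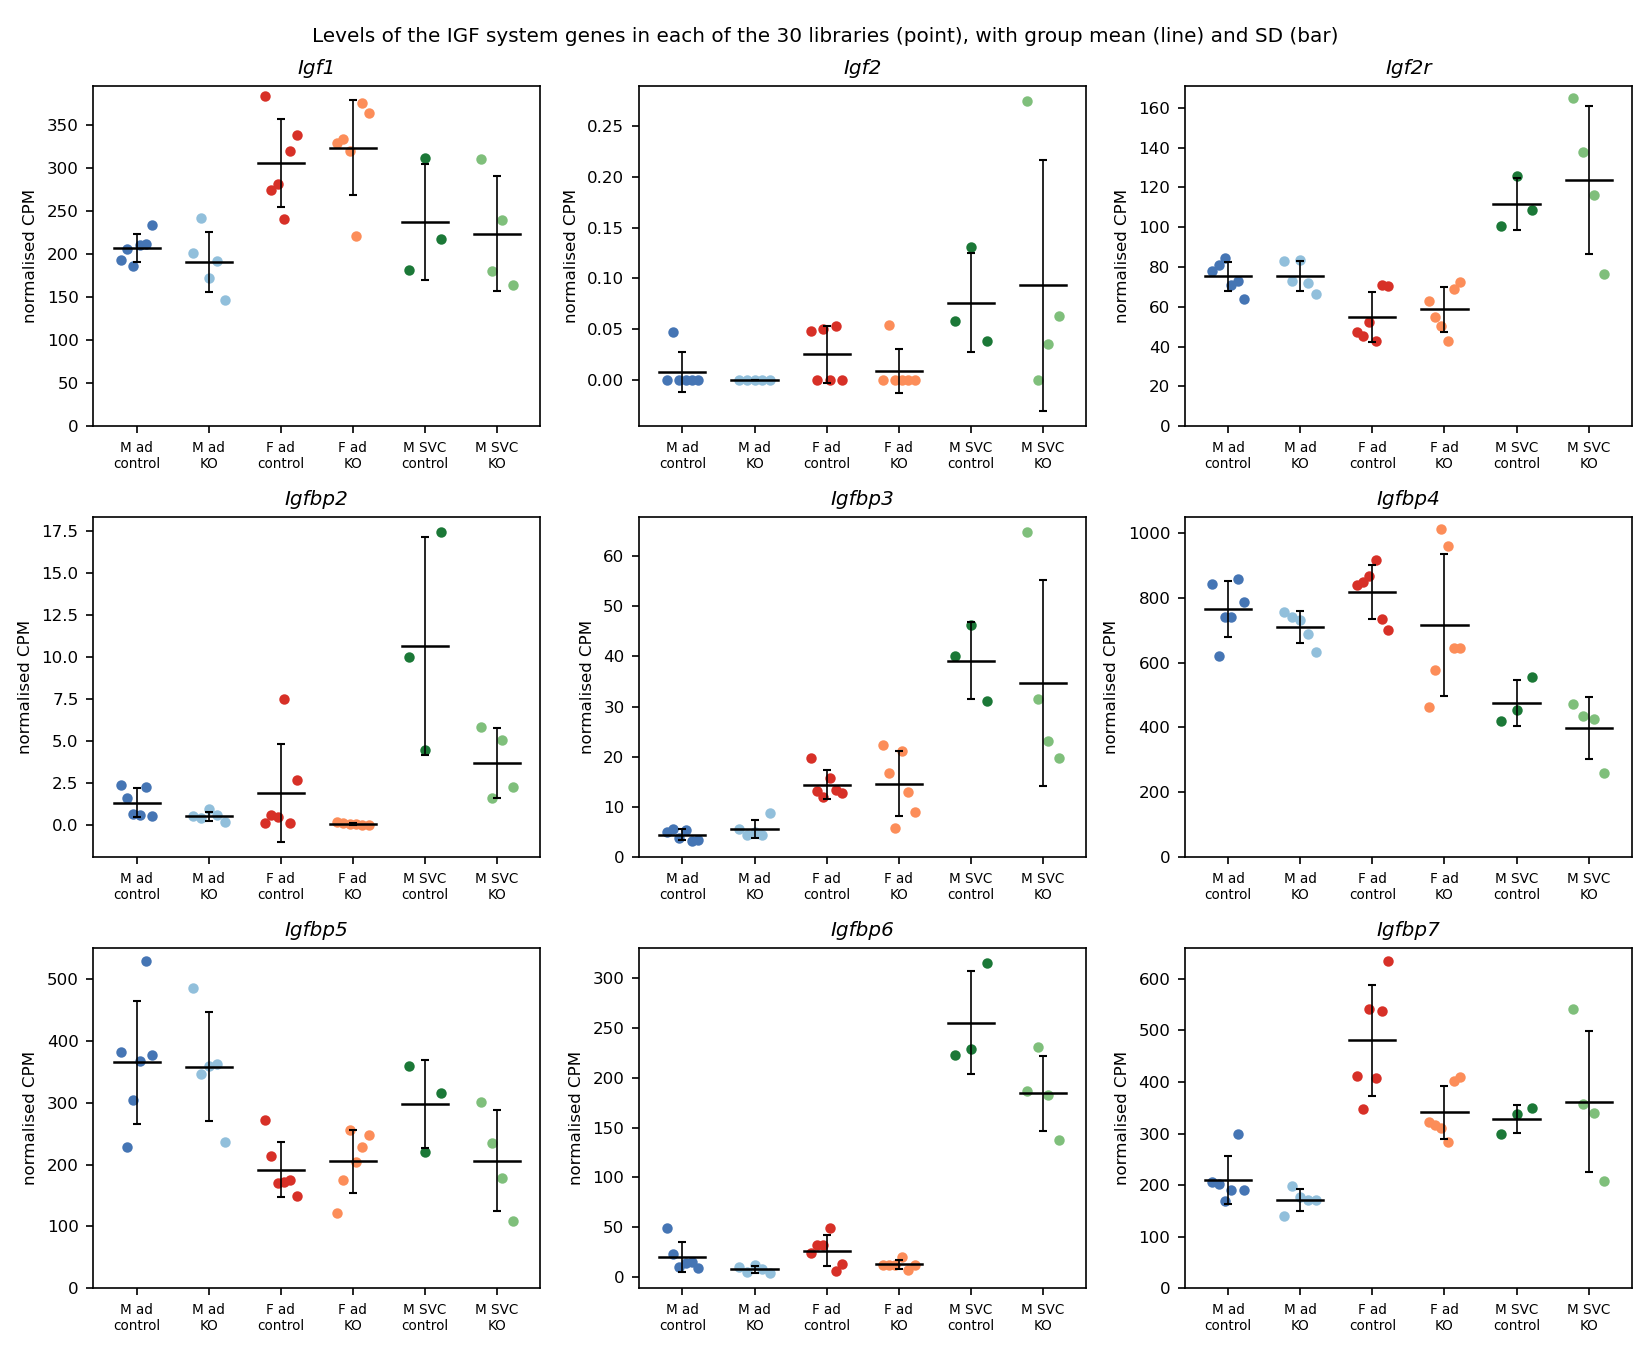
Normalised CPM of the 9 genes in each of the 30 libraries. Points are libraries, lines are group means and bars are SDs; each panel has its own scale. Igfbp6 lies between 138 and 315 in SVC and at or under 49.3 in adipocytes, and a single female control library carries Igfbp2 at 7.50.

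As background, β-catenin acts in the nucleus with Tcf and Lef factors. Their core letters CTTTGA and CTTTGT were searched on both strands in the 250 bases before each start site in RefSeq (build GRCm38.p6), and no other motif was searched. All 9 genes had a window, 13 windows in all, and 2 windows held a match (Igf1 and the most upstream of 4 Igf2 starts), against 27.6% of 32851 windows of all genes. Igf1, which gave no genotype call, had 2 matches, the first beginning 186 bases before its start. That window lies inside the first exon of longer Igf1 transcripts in GENCODE M21. Shown are the windows of Igfbp2 (the upstream start of 2) and Igfbp6, the pair with the most negative genotype differences in adipocytes, to show the letters that were searched. Neither holds a match, which would be in capitals. The stretch just after each of these 2 starts was not found in a GENCODE M21 transcript of its gene. For the other Igfbp2 start it was found. A match is a description of letters, and its absence says only that these letters are not in this window.
Igfbp2 (chr1:72824230-72824479, plus strand): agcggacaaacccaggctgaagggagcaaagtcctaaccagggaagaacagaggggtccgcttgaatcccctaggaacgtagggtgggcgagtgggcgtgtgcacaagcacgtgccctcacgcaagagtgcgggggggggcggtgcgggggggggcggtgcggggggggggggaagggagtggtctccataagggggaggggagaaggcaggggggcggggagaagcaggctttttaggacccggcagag
Igfbp6 (chr15:102143936-102144185, plus strand): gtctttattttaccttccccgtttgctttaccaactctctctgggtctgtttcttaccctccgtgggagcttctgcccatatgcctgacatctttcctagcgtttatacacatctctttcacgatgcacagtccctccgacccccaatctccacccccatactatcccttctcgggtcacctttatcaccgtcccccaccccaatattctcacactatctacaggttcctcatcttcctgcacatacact
GC content was 52.8% in the Igf1 window, 67.2% in the Igfbp2 window and 49.6% in the Igfbp6 window, with a median of 52.4% over all windows.

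The first comparison asked whether the knockout label changed the IGF system of adipocytes. In female adipocytes Igfbp2 was lower under the knockout label, and it was the sole member to pass the test. In males no member passed. The ligand Igf1, the receptor Igf2r and the abundant carriers Igfbp4 and Igfbp5 had log2 differences between -0.18 and 0.11 in both sexes. A gene was called when edgeR's quasi-likelihood test gave a Benjamini-Hochberg adjusted p below 0.05 over all genes tested, which was true of 0.471% of 14227 genes in females and 0.0703% in males. At an unadjusted p below 0.05 there were 3 of 8 members in females (Igfbp2, Igfbp6 and Igfbp7), beside 10.3% of all genes. In males there was 1 of 8 (Igfbp6), beside 13.1% of all genes, so that count lies near the background. DESeq2, limma-voom and limma on the authors' log2 values also called 0 members in males.

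**Figure D3:**
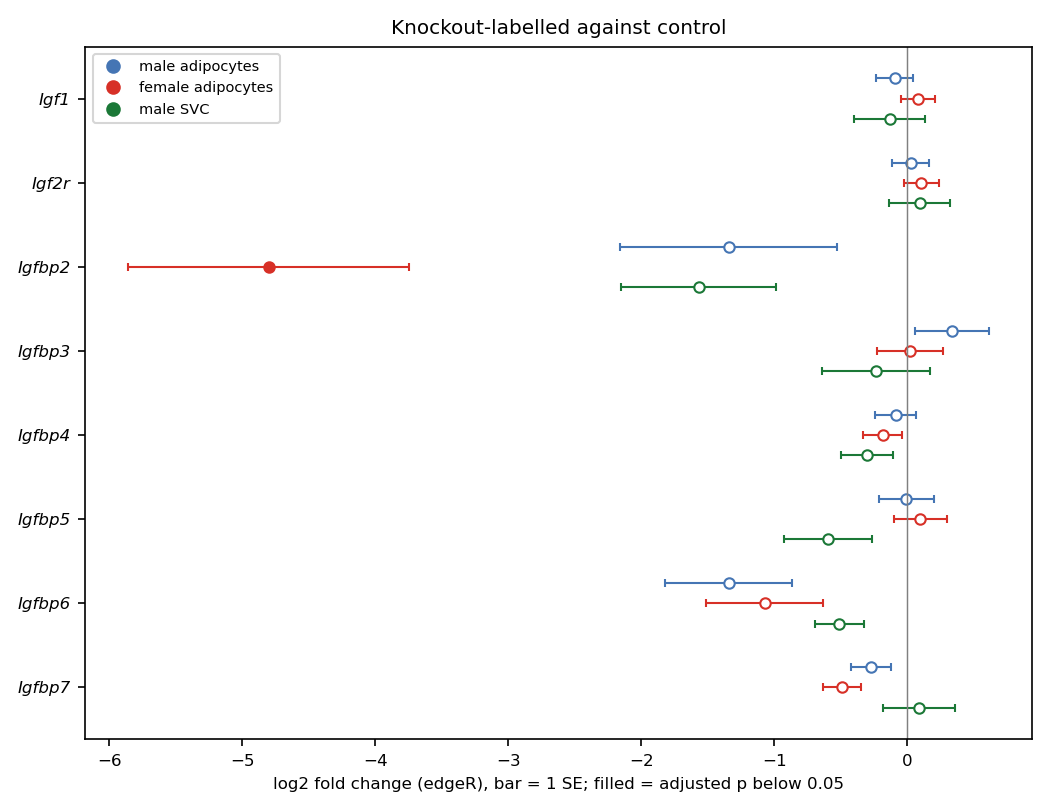
Knockout-labelled minus control differences of 8 members in 3 cell sets. Points are log2 fold changes from edgeR, bars are 1 standard error, and filled points have an adjusted p below 0.05. The single filled point is Igfbp2 in female adipocytes, at -4.80.

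Igfbp2, a binding protein with affinity for both IGFs, was rare in adipocytes. Female controls had 0.0975 to 7.50 normalised CPM with a median of 0.521, and female knockout-labelled libraries 0 to 0.166 with a median of 0.0513. The 2 groups overlapped, 4 of the 6 knockout-labelled libraries lay below every control, and controls 4 and 6 were far above the rest. Of the 233 Igfbp2 reads in the 6 female controls, 158 (67.8%) came from control 4, while the 6 knockout-labelled libraries had 7 reads together. The log2 fold change was -4.80 (SE 1.05, adjusted p = 0.0386, edgeR), and the ratio of summed reads was 33.3-fold lower, with an exact 95% interval of 15.9 to 83.7 that covers counting error only. In males the values were 0.512 to 2.36 (median 1.13) in controls and 0.527, 0.396, 0.923, 0.587 and 0.151 in knockout-labelled libraries. The male log2 fold change of -1.34 (SE 0.81, adjusted p = 0.492) did not pass, and the difference between the sexes' effects did not either (log2 -3.46, SE 1.42, adjusted p = 0.520). Only 0.0141% of genes were called in that test of the difference between sexes. Of the members 0 were called there, and 0 by DESeq2, limma-voom and limma on the log2 values. At an unadjusted p below 0.05 there was 1 member, beside 8.87% of all genes.

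The Igfbp2 call in females rested on few libraries. Without female control 4 the log2 fold change was -3.50 (adjusted p = 0.144) and without control 6 it was -4.69 (adjusted p = 0.0648). Leaving out any 1 of the 6 knockout-labelled libraries gave adjusted p-values of 0.0613 to 0.0935. With both controls 4 and 6 left out, a choice made after their values were seen, it was -2.22 (adjusted p = 0.604). In the mean of the male and female effects, Igfbp2 had a log2 change of -3.07 (SE 0.68, adjusted p = 0.0311) and was again the 1 member called, where 0.759% of genes were. That call was lost without any 1 of 9 libraries, with adjusted p-values of 0.0529 to 0.0654, the libraries being male controls 1 and 5, male knockout-labelled 1, 2 and 4, female control 6, and female knockout-labelled 2, 4 and 5. DESeq2 called it in females (adjusted p = 3.00e-04) and limma-voom did not (adjusted p = 0.233). Over all genes DESeq2 called 208, limma-voom 72 and edgeR 67 in females.

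Igfbp6, which binds IGF-II more tightly than IGF-I, had lower means under the knockout label in every cell set without passing the test in any. In male adipocytes controls had 8.44 to 48.6 normalised CPM (median 14.5) and the knockout-labelled libraries 10.1, 4.75, 12.0, 7.54 and 3.87. All 5 lay below the control mean of 19.7 and 3 lay below every control. In female adipocytes controls ranged from 5.96 to 49.3 (median 28.1) and knockout-labelled libraries from 6.28 to 19.9 (median 12.2), all 6 of them below the control mean of 26.2. On the log2 scale the male change was -1.34 (SE 0.48, adjusted p = 0.228), the female change -1.07 (SE 0.44, adjusted p = 0.383) and the mean of both -1.21 (SE 0.32, adjusted p = 0.0842). DESeq2 called Igfbp6 in that mean (adjusted p = 0.0269), as did edgeR without female control 5 (adjusted p = 0.0384). With preadipocyte and fibroblast markers as a covariate, edgeR called it in that mean (adjusted p = 0.0141) and in males (adjusted p = 0.0434), but not in females. DESeq2 and that covariate also called more genes in general. In the mean 355 genes were called by DESeq2 and 414 with the covariate, against 108 in the main fit. In males the covariate gave 108 called genes, against 10.

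Markers of mesothelium, the lining of visceral fat, moved with Igfbp6 and Igfbp2. Summed over 12 markers they were 19.8 to 138 normalised CPM (median 42.5) in male control and 6.69 to 29.2 (median 20.6) in male knockout-labelled adipocytes, and 11.6 to 108 (median 41.4) against 9.75 to 22.0 (median 14.5) in females. All 12 markers had at least 1 read in each of the 6 groups, with Upk3b and Msln above 0 in every library. Many were low, since 7 of 12 had means under 1 normalised CPM in each knockout-labelled adipocyte group. In control adipocytes this held for 3 in males and 2 in females. After subtraction of group means, log2 Igfbp6 and the log2 marker sum had a Pearson r of 0.90 over the 23 adipocyte libraries, and Igfbp2 one of 0.70. With the mammary and skin epithelial sum Igfbp2 had an r of 0.54 and Igfbp6 one of -0.04. Igfbp6 also had an r of 0.63 with the granulocyte and mast cell sum. With the erythroid sum it was 0.61 and with the preadipocyte and fibroblast sum 0.58. These are descriptions, since the points share library and depth. The ratio of Igfbp6 to the marker sum was 0.379 ± 0.0539 (SD, n = 6) in male controls and 0.462 ± 0.121 (n = 5) in male knockout-labelled adipocytes, and 0.567 ± 0.180 and 0.836 ± 0.251 (n = 6 each) in females. The ratio of Igfbp2 to the marker sum was 0.0280 ± 0.0296 (median 0.0124) in female controls and 0.00415 ± 0.00398 (median 0.00384) in female knockout-labelled libraries. In female adipocytes the Igfbp2 means thus differed by more than the marker sums, with wide spread in controls. The male ratio was not lower under the knockout label, with 0.0272 ± 0.0114 (n = 6) in controls and 0.0302 ± 0.0124 (n = 5) in knockout-labelled adipocytes. With the mean mesothelial marker level as a covariate, the mean log2 change of Igfbp6 over both sexes was 0.11 (adjusted p = 0.836), and that of Igfbp2 was -1.01 (adjusted p = 0.488). Female control 4, the library highest in Igfbp2, also had the highest mesothelial sum (108) and the highest epithelial marker sum (51.1, against 3.17 to 17.7 in the other female controls) of its group. In bulk samples fewer cells of a type and less RNA per cell cannot be told apart.

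**Figure D4:**
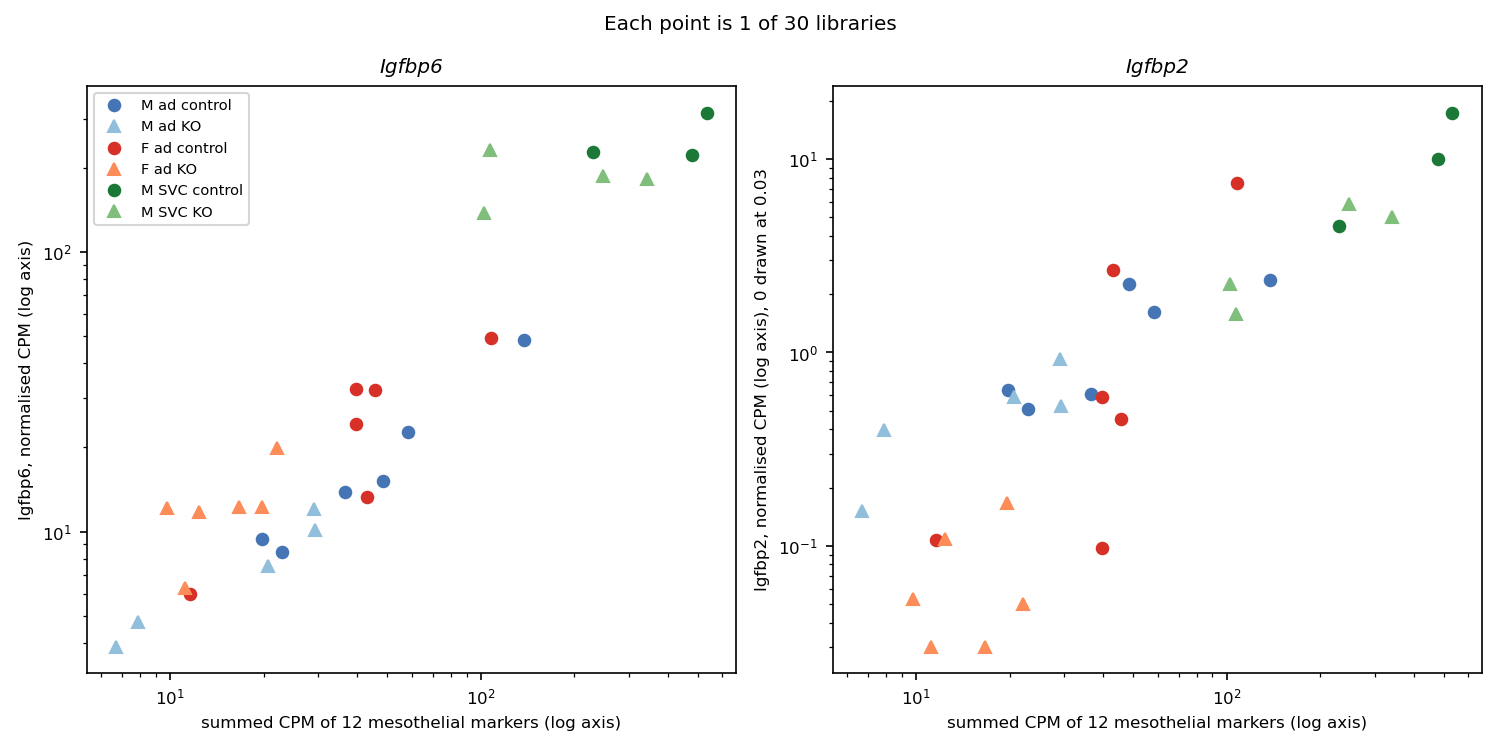
Igfbp6 (left) and Igfbp2 (right) against the summed level of 12 mesothelial markers in each of the 30 libraries, on log axes. Circles are controls and triangles knockout-labelled libraries; both genes are highest where the marker sum is high, and Igfbp6 is higher in SVC than in adipocytes at the same sum.

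Igfbp7 had a smaller difference with less spread. Female controls ranged from 348 to 635 normalised CPM (median 475) and female knockout-labelled libraries from 284 to 409 (median 319), and all 6 of the latter lay below the control mean of 480. Males had 170 to 300 (median 197) in controls and 140, 199, 176, 171 and 172 in knockout-labelled libraries. The female log2 change was -0.49 (SE 0.14, adjusted p = 0.144), the male one -0.27 (SE 0.15, adjusted p = 0.449) and their mean -0.38 (SE 0.11, adjusted p = 0.0872). DESeq2 called the mean (adjusted p = 0.0248). With preadipocyte and fibroblast markers as a covariate, edgeR called Igfbp7 in females (adjusted p = 0.0352) and in the mean (adjusted p = 0.0145), but not in males. In females that covariate gave 134 called genes of all 14227, against 67 in the main fit. In the mean it gave 414, and DESeq2 355, against 108. The sum of those markers had a Pearson r of -0.61 with Igfbp7 within groups. The adipocyte marker sum, which had a Pearson r of 0.63 with Igfbp7 within groups, was 58851 to 87779 in female controls and 58790 to 76058 in female knockout-labelled libraries. Its part in the difference was not tested.

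Igfbp3, the main carrier of IGF in plasma, and the members of higher abundance gave no call. Igfbp3 was 14.5 ± 2.88 normalised CPM in female controls and 14.7 ± 6.56 in female knockout-labelled libraries (n = 6 each), with a log2 change of 0.02 (SE 0.25, adjusted p = 0.989). Igf1 was 306 ± 51.2 against 324 ± 54.9 in females and 207 ± 16.3 (n = 6) against 191 ± 35.3 (n = 5) in males. Igfbp4 was 817 ± 82.2 in female controls and 716 ± 219 in female knockout-labelled libraries, which spread from 462 to 1011 on both sides of the controls. For 0 of the 9 members did the 2 genotype groups separate without overlap, in males (1.1% of 26096 genes did) or in females (0.498%). The median log2 change over the 8 tested members was -0.09 in males and -0.08 in females, beside 0.02 and 0.01 over all genes.

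In SVC of males no member was called, and Igfbp2, Igfbp5 and Igfbp6 had the most negative log2 changes. Igfbp2 was 10.0, 4.49 and 17.4 normalised CPM in the 3 controls and 5.86, 1.58, 5.05 and 2.25 in the 4 knockout-labelled libraries. Igfbp6 was 223, 229 and 315 in controls and 187, 231, 182 and 138 in knockout-labelled libraries. The groups overlapped for both genes, through 1 control of Igfbp2 and 1 knockout-labelled library of Igfbp6. The log2 changes were -1.57 (SE 0.58, adjusted p = 0.967) and -0.51 (SE 0.18, adjusted p = 0.967), and that of Igfbp5 was -0.60 (SE 0.33, adjusted p = 0.967). By edgeR, DESeq2, limma-voom and limma on the log2 values 0 members were called. In edgeR 2 of 8 had an unadjusted p below 0.05, beside 2.62% of all genes. The share of all 16404 genes called was 0%, and 3.1% of genes, but 0 members, separated without overlap. The mesothelial sum was 481, 230 and 534 in controls and 247, 107, 342 and 102 in knockout-labelled SVC, and the ratio of Igfbp2 to it was 0.0243 ± 0.00723 (n = 3) and 0.0188 ± 0.00472 (n = 4). The difference of the genotype effects between SVC and adipocytes was called for 0 of 8 members by edgeR, where 0% of genes were. DESeq2, limma-voom and limma on the log2 values also called 0 members. In edgeR 0 members had an unadjusted p below 0.05, beside 6.66% of all genes.

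The sexes differed for more members than the genotype labels did. In control adipocytes Igf1, Igfbp3 and Igfbp7 were higher in females and Igfbp5 and Igf2r were lower, 5 called members of 8, where 43.8% of all genes were called. In knockout-labelled adipocytes Igf1, Igfbp3, Igfbp7 and Igfbp5 were called in the same directions, 4 of 8, where 34.6% of genes were. These shares lie near the background, so the count says nothing particular about the members. Sex and whatever else differs between the male and female mice cannot be told apart here.

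Igfbp7 had the clearest separation by sex. Its values were 170 to 300 normalised CPM in male and 348 to 635 in female controls, and at most 199 in male and at least 284 in female knockout-labelled libraries, with no overlap in either genotype. The log2 difference was 1.22 (SE 0.15, adjusted p = 8.18e-07) in controls and 1.01 (SE 0.15, adjusted p = 2.66e-05) under the knockout label. Igfbp3 was 3.28 to 5.71 (median 4.54) in male and 12.0 to 19.7 (median 13.3) in female controls, a log2 difference of 1.72 (SE 0.26, adjusted p = 1.98e-05). Under the knockout label Igfbp3 was 5.60, 4.40, 4.95, 4.35 and 8.80 in males and 5.88 to 22.3 in females, so the groups overlapped through male library 5 and the lowest female library, with a log2 difference of 1.40 (SE 0.27, adjusted p = 3.98e-04). That call was lost with macrophage markers (log2 1.58, adjusted p = 0.0800) or preadipocyte markers (log2 0.87, adjusted p = 0.119) as a covariate. Calls were lost among all 14227 genes too, from 4925 in the main fit to 1180 with macrophage and 3299 with preadipocyte markers. The loss is thus not particular to Igfbp3.

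Igf1 was 187 to 233 normalised CPM in male and 241 to 384 in female controls, without overlap, and the log2 difference was 0.60 (SE 0.13, adjusted p = 7.62e-04). Under the knockout label it was 0.77 (SE 0.14, adjusted p = 1.42e-04), from 202, 242, 172, 192 and 147 in males and 221 to 376 in females, which overlapped through the highest male and the lowest female library. Igfbp5, a carrier that binds extracellular matrix, was lower in females: 150 to 273 against 229 to 529 in controls, a log2 difference of -0.89 (SE 0.20, adjusted p = 0.00103), and -0.79 (SE 0.21, adjusted p = 0.00519) under the knockout label. The Igfbp5 groups overlapped in both. Groups separated without overlap for 3 members in controls (12.1% of genes) and 1 in knockout-labelled adipocytes (10.3%).

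Igf2r was 64.1 to 84.3 normalised CPM in male and 42.8 to 70.8 in female controls, with a log2 difference of -0.43 (SE 0.13, adjusted p = 0.0110), and -0.35 (SE 0.14, adjusted p = 0.0524) under the knockout label. There it passed with both other scaling factors, library totals, both other filters, the replicate block, DESeq2, limma-voom and limma on the log2 values (adjusted p = 0.00785 to 0.0492), and in edgeR without male library 5 or female library 1, 5 or 6 (adjusted p = 0.0229 to 0.0410). Its call in controls was lost with macrophage markers (log2 -0.46, adjusted p = 0.0565) or depot markers (log2 -0.37, adjusted p = 0.215) as a covariate, and with preadipocyte markers the sign turned (log2 0.09, adjusted p = 0.754), as it did under the knockout label (log2 0.15, adjusted p = 0.571). Preadipocyte and fibroblast markers (12 genes) summed to 493.2 to 731 in male and 903 to 1333 in female control adipocytes, and macrophage markers (12 genes) to 730 to 1347 and 361 to 646, so neither sum overlapped between the sexes. The Igf1 call was lost with the depot covariate in controls (adjusted p = 0.0565) and under the knockout label (adjusted p = 0.137), where macrophage markers also ended it (adjusted p = 0.0891), and that of Igfbp5 under the knockout label with macrophage or depot markers (adjusted p = 0.223 and 0.263). Over all 14227 genes, calls in controls fell from 6227 to 4618 with macrophage, 3244 with preadipocyte and 2865 with depot markers. Under the knockout label they fell from 4925 to 1180 with macrophage and 826 with depot markers. Such losses are thus not particular to these members. Endothelial markers (10 genes), with a Pearson r of 0.76 with Igfbp3 within groups, were 256 to 559 in male and 373 to 652 in female controls, and the ratio of Igfbp3 to that sum was 0.0108 ± 0.00183 and 0.0284 ± 0.00605 (n = 6 each).

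**Figure D5:**
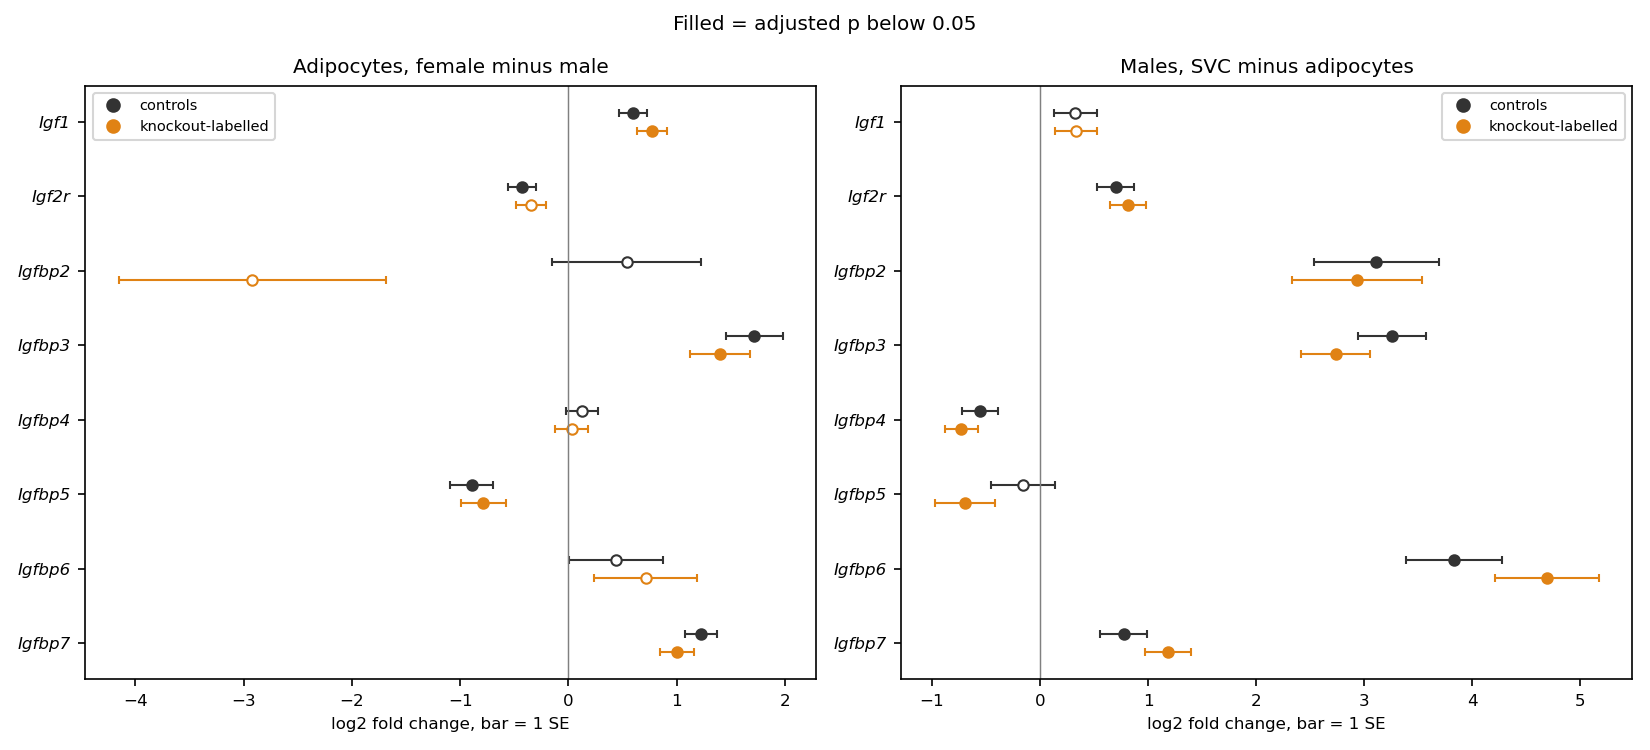
Log2 fold changes of 8 members, female minus male adipocytes (left) and SVC minus adipocytes of males (right), in controls and knockout-labelled libraries. Bars are 1 standard error and filled points have an adjusted p below 0.05; Igfbp6, Igfbp3 and Igfbp2 exceed 2.7 between the fractions in both genotypes.

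The fraction comparison asked where in male fat each mRNA was found. Igfbp6, Igfbp3 and Igfbp2 were 6.68- to 25.8-fold higher in SVC, Igf2r and Igfbp7 were 1.63- to 2.27-fold higher, and Igfbp4 was lower. In controls 6 of 8 members were called, 5 higher and 1 lower, where 77.1% of 17251 genes were called. In knockout-labelled mice 7 of 8 were called, 5 higher and 2 lower, where 76.5% of genes were. Groups separated without overlap for 5 members in controls (55.1% of genes) and 5 in knockout-labelled mice (43.5%).

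Igfbp6 was 256 ± 51.5 normalised CPM in control SVC (n = 3) and 19.7 ± 15.1 in control adipocytes (n = 6), a log2 difference of 3.83 (SE 0.44, adjusted p = 7.84e-07). Under the knockout label it was 184 ± 38.0 (n = 4) and 7.66 ± 3.47 (n = 5), a log2 difference of 4.69 (SE 0.48, adjusted p = 1.88e-07). Igfbp3 was 40.1, 46.3 and 31.1 in control SVC and 3.28 to 5.71 in control adipocytes (log2 3.26, SE 0.32, adjusted p = 7.03e-08). In knockout-labelled SVC it was 64.7, 31.4, 23.1 and 19.8, the highest value coming from library 1, which also had the highest endothelial marker sum (2717, against 322 to 1169 in the other 3). Igfbp2 had a log2 difference of 3.11 (SE 0.58, adjusted p = 1.13e-04) in controls and 2.93 (SE 0.60, adjusted p = 2.95e-04) under the knockout label. These 3 genes kept their direction and call in all 21 alternatives run for each genotype.

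Igf2r was 101, 126 and 108 normalised CPM in control SVC and 64.1 to 84.3 in control adipocytes, a log2 difference of 0.70 (SE 0.17, adjusted p = 0.00129), and 0.82 (SE 0.16, adjusted p = 2.59e-04) under the knockout label. Igfbp7 differed by 0.78 (SE 0.22, adjusted p = 0.00398) and 1.19 (SE 0.21, adjusted p = 8.13e-05). Its call in controls was lost when only library numbers present in both fractions were kept (adjusted p = 0.0689, edgeR). The number in the column name as a replicate block also ended that call. Igfbp4 was 420, 452 and 554 in control SVC and 621 to 856 in control adipocytes, a log2 difference of -0.55 (SE 0.16, adjusted p = 0.00551). With library totals in place of TMM the Igfbp4 difference in controls was -0.01 (adjusted p = 0.954), from 674 CPM in SVC and 681 in adipocytes. The same change of scaling raised the Igf1 difference in controls from 0.33 (adjusted p = 0.146) to 0.88 (adjusted p = 6.74e-04), and under the knockout label from 0.34 (adjusted p = 0.121) to 0.78 (adjusted p = 0.00153). Igfbp5 was called lower in knockout-labelled SVC (log2 -0.69, SE 0.28, adjusted p = 0.0330), not with library totals (log2 -0.27, adjusted p = 0.372), nor in controls (log2 -0.16, SE 0.29, adjusted p = 0.638), where library totals gave 0.41. It was also lost with relative log expression factors (adjusted p = 0.0506), DESeq2 (0.0676), limma on the log2 values (0.0521), the 2 groups fitted alone (0.0635) and the numbers present in both fractions (0.196), and without adipocyte library 1 (adjusted p = 0.0816), SVC library 3 (adjusted p = 0.0798) or SVC library 4 (adjusted p = 0.103) of the knockout-labelled mice. The Igf1 difference under the knockout label passed without knockout-labelled SVC library 4 (adjusted p = 0.0340, edgeR). It also passed with relative log expression factors, limma on the log2 values and the numbers present in both fractions (lowest adjusted p = 0.0277). In controls it passed without SVC control 1 and knockout-labelled SVC library 1 together (adjusted p = 0.0385), a choice made after their values were seen. Under the knockout label the Igfbp4 difference was -0.73 (SE 0.15, adjusted p = 4.13e-04), and it was -0.29 with library totals (adjusted p = 0.0424). The Igf1 calls, the Igfbp4 call and the Igfbp5 sign in controls, and the Igfbp5 call under the knockout label thus depended on the scaling. Visceral depot markers (6 genes) were 144 to 173 in control SVC and 29.8 to 44.2 in control adipocytes, and subcutaneous depot markers (7 genes) 10.5 to 19.0 and 104 to 126. Wt1 and Bnc1 of the visceral list are also in the mesothelial list. Of the subcutaneous list 5 of 7 genes had means under 1 normalised CPM in both control groups, so these sums are rough guides to depot. Their part in the fraction differences was not tested.

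The rest of the pathway was followed through 40 genes in 6 lists, of which 31 passed the filter in adipocytes and 37 in the male fits with SVC. For the genotype label edgeR called 0 of 31 in males, 1 of 31 in females and 2 of 31 in the mean of both sexes, all higher. Of all genes 0.0703%, 0.471% and 0.759% were called. In males 4 of 31 had an unadjusted p below 0.05, beside 13.1% of all genes. DESeq2 called 1 of the pathway genes in males, where it called 163 genes in all. Grb14, an adaptor protein that inhibits insulin receptor signalling, was 29.7 ± 8.21 normalised CPM in male controls and 50.3 ± 7.99 in male knockout-labelled adipocytes, and 7.14 ± 1.99 and 20.9 ± 2.05 in females. It rose in females, with a log2 change of 1.55 (SE 0.18, adjusted p = 1.26e-04), and in the mean of both sexes, with 1.16 (SE 0.13, adjusted p = 3.35e-05). The male change of 0.78 (SE 0.18) had an adjusted p of 0.0795 in edgeR, and Grb14 was the gene that DESeq2 called in males. Ndn, an imprinted growth suppressor, rose by 0.47 in the mean of both sexes (SE 0.10, adjusted p = 0.0284). The median log2 change over the 31 genes was 0.01 in males and -0.03 in females. In SVC edgeR called 0 of 37, and 2 had an unadjusted p below 0.05, beside 2.62% of all genes. DESeq2 called 1 of the pathway genes there, where it called 65 genes in all. Plagl1, an imprinted transcription factor, had the smallest p in edgeR (log2 -1.20, SE 0.29, adjusted p = 0.967).

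Between the sexes 21 of 31 pathway genes were called in control adipocytes, 12 higher and 9 lower in females, where 43.8% of all genes were called, with a median log2 difference of 0.10 beside 0.05 over all genes. Under the knockout label 15 of 31 were called, 9 higher and 6 lower, where 34.6% of all genes were. Grb14 and Stc2, an inhibitor of the protease that cuts IGFBP-4, had the smallest p-values in controls, with log2 differences of -2.02 (SE 0.18, adjusted p = 1.32e-08) and -1.23 (SE 0.14, adjusted p = 3.49e-07). Zim1, an imprinted zinc finger gene, was higher in females (log2 2.98, SE 0.47, adjusted p = 3.14e-05). Under the knockout label Stc2 (log2 -1.28) and Grb14 (log2 -1.25) were again lower, and Socs2, a feedback inhibitor of growth hormone signalling, was higher (log2 1.73, SE 0.28, adjusted p = 5.13e-05). Of the growth hormone list 2 of 6 were higher and 2 of 6 lower in control females, and of the imprinted list 6 of 10 were higher and 1 lower, beside 23.7% of all genes higher and 20.1% lower.

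Between the fractions 32 of 37 pathway genes were called in controls, 17 higher and 15 lower in SVC, and 32 of 37 under the knockout label, 16 each way, where 77.1% and 76.5% of all genes were called. Ghr, the growth hormone receptor, was 1199 ± 117 normalised CPM in control adipocytes (n = 6) and 30.9 ± 12.5 in control SVC (n = 3), a log2 difference of -5.16 (SE 0.29, adjusted p = 1.10e-10). Stc2 was lower in SVC (log2 -4.08, SE 0.18, adjusted p = 9.34e-12), and Mmp2, a matrix protease that can cleave binding proteins, was higher (log2 6.24, SE 0.29, adjusted p = 1.31e-11). Of the protease list 5 of 9 were higher and 2 of 9 lower in control SVC, and of the receptor and substrate list 2 of 7 higher and 4 of 7 lower, beside 44.2% of all genes higher and 32.8% lower. Of the other carriers, chosen here after their values were seen, Igfals was 84.7 ± 10.2 in male control adipocytes and 0.811 ± 0.464 in control SVC, and Igfbp1 had 0 reads in all adipocyte libraries and 3 to 26 per control SVC library.

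Within groups of the 23 adipocyte libraries, the genes whose log2 levels ran closest to each member were taken as the 3 of highest Pearson r among 11404 genes or more, after subtraction of group means. Igf2r ran closest to Insr, the insulin receptor (r = 0.92), then Pom121 (0.90) and Sox6 (0.90). Igfbp6 ran closest to Aebp1 (0.95), Nbl1 (0.91) and Gpc3 (0.91), and Igfbp2 to the keratin Krt7 (0.84), Sprr1a (0.78) and the keratin Krt18 (0.76). Krt7 and Krt18 are also in the mesothelial marker list. Igfbp3 was nearest to Dll4 (0.89), a Notch ligand of endothelium, Ppp1r16b (0.89) and Txnl1 (0.88). For Igfbp7, Ces1f (0.79) and Adtrp (0.78) were among the 3, and Igf1 was nearest to Ptpn4 (0.85), Rhobtb3 (0.85) and Ikzf2 (0.85). Igfbp4 was nearest to Cux2 (0.86), Dcst1 (0.86) and Itm2c (0.85), and Igfbp5 to Plppr2 (0.74), Daglb (0.74) and Frrs1 (0.73). Among the members, Igfbp4 and Igfbp5 had the highest r (0.64), followed by Igfbp2 and Igfbp6 (0.56), and Igf2r and Igfbp4 the lowest (-0.54). The points share library preparation and depth, and these values are descriptions with no test.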

How the data were processed

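The authors deposited whole-number read counts per gene and log2 values (regularised logarithms) for 30 libraries. The submitters' processing notes name STAR 2.7.11a, FastQC 0.12.1, the build mm39 and DESeq2, with no role for each. For counting, neither program nor strand setting nor annotation is given in the sources used here. Counts were tested with edgeR 4.0.16 (R 4.3.3): TMM scaling, filterByExpr (minimum count 10), robust quasi-likelihood F-tests, Benjamini-Hochberg adjustment over all genes. The 23 adipocyte, 7 SVC and 18 male libraries were fitted separately. Standard errors are the log2 change over the square root of F. Levels and marker sums are CPM with TMM factors over all 30 libraries. Alternatives included other scalings and filters, DESeq2 1.42.0, limma 3.58.1 (voom, and the deposited log2 values), marker covariates, a replicate block and left-out libraries. The procedure was tested on simulated data. No pair of libraries of a group agreed within counting noise (lowest chi-square per degree of freedom 11.9). Named genes are the members, Ctnnb1, up to 3 called pathway genes of smallest p per comparison (or the gene of smallest p) and the 3 nearest patterns (for Igfbp7 an entry is not reported here); markers are given as sums. Members and lists were chosen with earlier results of these data known. 33501 of 35120 identifiers had a symbol.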

Additional observations from a re-analysis of the deposited data

Results flagged for a closer look

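In groups of 4 to 10 libraries, a library was singled out where its gap to the nearest other, divided by the range of the group, passed Dixon's 95% critical value. Of 40 groups of a member tested, 5 had such a library, and chance gives about 1 in 20 groups. Igfbp2 in female control adipocytes had 7.50 normalised CPM in control 4, the library on which its genotype call rests most. Igfbp6 in male control adipocytes had 48.6 in control 1, which also had the highest mesothelial marker sum of the adipocyte libraries (138). Igfbp3 in male knockout-labelled adipocytes had 8.80 in library 5, which had the highest endothelial marker sum of its group (754, against 252 to 479). Igfbp7 in male control adipocytes had 300 (299.8) in control 5. Igf1 in female knockout-labelled adipocytes had its lowest value, 221, in library 4. Which part these markers have in the values was not tested.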

How the results depend on the processing

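Alternatives numbered 17 to 38 per comparison, and the count of called members stayed within 1.5 times its main value in all of them for 6 of the 10 comparisons. The female Igfbp2 call (count 1) became 0 called members with no filter on low counts, limma-voom, limma on the authors' log2 values, the replicate block, the mesothelial, macrophage and depot covariates, and with controls 4 and 6 (with or without male knockout-labelled library 5) left out; it also became 0 with a mean of at least 1 CPM and with 2 groups fitted alone, where Igfbp2 did not pass the filter. It became 2 with the preadipocyte covariate, and 0 to 1 on leaving out each library. The count for the mean of both sexes (1) became 0 under the same settings except the fit of 2 groups, which it does not have, and 3 with DESeq2 and the preadipocyte covariate, and 0 to 2 on leaving out each library. The male count (0) became 1 with the preadipocyte covariate, and that between the sexes under the knockout label (4) became 1 with the macrophage covariate. Calls over all genes moved too. The preadipocyte covariate took them from 10 to 108 in males, 67 to 134 in females and 108 to 414 in the mean. In females 67 became 11 with mesothelial, 30 with macrophage and 23 with depot markers. Between the sexes under the knockout label 4925 became 1180 with macrophage markers. Signs turned with the preadipocyte covariate for the female minus male differences of Igf2r (0.0863) and Igfbp6 (-2.21) in controls and Igfbp6 (-1.75) under the knockout label, and for Igfbp2 in controls (-2.07 with or without male library 5) when female controls 4 and 6 were left out. Uncalled female minus male values also changed sign, among them Igf2r under the knockout label with the preadipocyte covariate (0.146). Igfbp2 in controls did so without female control 4 (-0.786), with the replicate block (-0.135), limma-voom (-0.691), limma on the log2 values (-0.383) and the mesothelial (-0.152) and preadipocyte (-1.52) covariates. Igfbp2 under the knockout label did so with the depot covariate (0.0527), and Igfbp4 in controls went down to -0.309. Among uncalled genotype differences, that of Igfbp2 in male adipocytes (-1.34 in the main fit) went up to 0.267. That of Igfbp6 in female adipocytes (-1.07 in the main fit) went up to 0.342. Other uncalled differences near 0 turned as well. Libraries to leave out together, and the scaling by library totals, were chosen after seeing the data. The cause of these changes was not tested.

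Replicate numbers were shared between groups, but the sources used here state no pairing, so no number was used as a pairing in the main fits. Within a fraction, same-numbered libraries did not deviate together throughout. Between female control and knockout-labelled adipocytes the correlations were 0.265, 0.112, -0.06, 0.482, 0.537 and 0.368. Over the other pairs within a fraction they were -0.275 to 0.353. With the replicate block, the female Igfbp2 change was -4.40 (adjusted p = 0.119). Between the fractions the numbers in the column names gave correlations above 0.1 in 5 of 6 pairs and -0.0122 in the other. In those 5 pairs the same-numbered SVC library was the closest of its genotype to the adipocyte library. Whether they share a mouse is not stated, and the main fraction tests took all libraries as independent. With that number as a replicate block, the SVC minus adipocyte calls of Igfbp4 (adjusted p = 0.0853) and Igfbp7 (adjusted p = 0.0614) in controls and of Igfbp5 under the knockout label (adjusted p = 0.203) were lost. Igfbp2 had at most 19 reads per library in knockout-labelled adipocytes, so its differences there are limited by depth.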
